A study of Homo sapiens with 2 samples.

Results

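The block studied here is a set of 10 genes from one interval of the long arm of chromosome 8, which runs from AARD to SNTB1 and also holds 7 other genes of the array, read in the Ewing sarcoma line A4573. Its members are AARD, MED30, ENPP2, TAF2, DSCC1, DEPTOR, COL14A1, MRPL13, MTBP and SNTB1, and every probe that the platform annotation gives to one of these symbols was taken. That gave 12 of the 47323 probes on the array and 10 of 20046 named genes. ENPP2 and DEPTOR had 2 probes each and the other genes 1. The genes were chosen by their position and by their higher reading in the adapted array, so their differences describe them and test nothing.

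A4573 is an established line from Ewing sarcoma, a cancer of bone or soft tissue whose driver is usually the fused transcription factor EWSR1-FLI1. Total RNA came from the parental wild-type cells and from a radiation-adapted derivative whose description carries 4 Gy; no schedule of irradiation and no number of cultures or clones is stated. Each was hybridised to 1 Illumina bead array, so each group holds 1 array, the comparison has no replicate check, and no p-value or standard error between samples can be given. All differences are log2 adapted minus log2 wild type after background correction and quantile normalisation, and the limit for calling a probe detected is a detection p of 0.01.

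The members share their interval and their higher reading, and no one pathway. They serve transcription (MED30, TAF2), chromosome duplication (DSCC1, MTBP), mitochondrial translation (MRPL13), growth and lipid signalling (DEPTOR, ENPP2), and the matrix and cell cortex (COL14A1, SNTB1). Extra copies of chromosome 8 are a common chromosomal change in Ewing sarcoma, but the arrays read RNA alone and DNA copy number was not measured here. In bulk RNA, a change in the share of cells that express a gene and a change in RNA per cell cannot be told apart.

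All 10 genes were higher in the adapted array by at least 1.5-fold, and 9 of them by at least 2-fold. Among the 11296 genes with a detected probe, 11.8% were 1.5-fold higher or more and 12.2% as much lower; at 2-fold these shares were 2.74% and 4.4%. The 1.5-fold counts were 1333 higher and 1379 lower, and with median scaling in place of quantile normalisation 2156 higher and 1014 lower, as the median of all tested genes then moved to 0.17. The median difference of the 10 was 1.57, or 2.96-fold, beside 0.01 over all tested genes. MTBP had the smallest difference (0.77) and COL14A1 the largest, with a bound of 3.24. Of the 12 probes, 11 were detected in both arrays. The wild-type signal of COL14A1 fell short of the limit and its difference is therefore a bound. As a scale for technical scatter, pairs of probes to one gene, taken over 2326 genes, gave an SD of 0.28 per probe on the log2 difference; it covers noise of single probes, and neither error shared by the probes of an array nor variation between cultures.

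**Figure D1:**
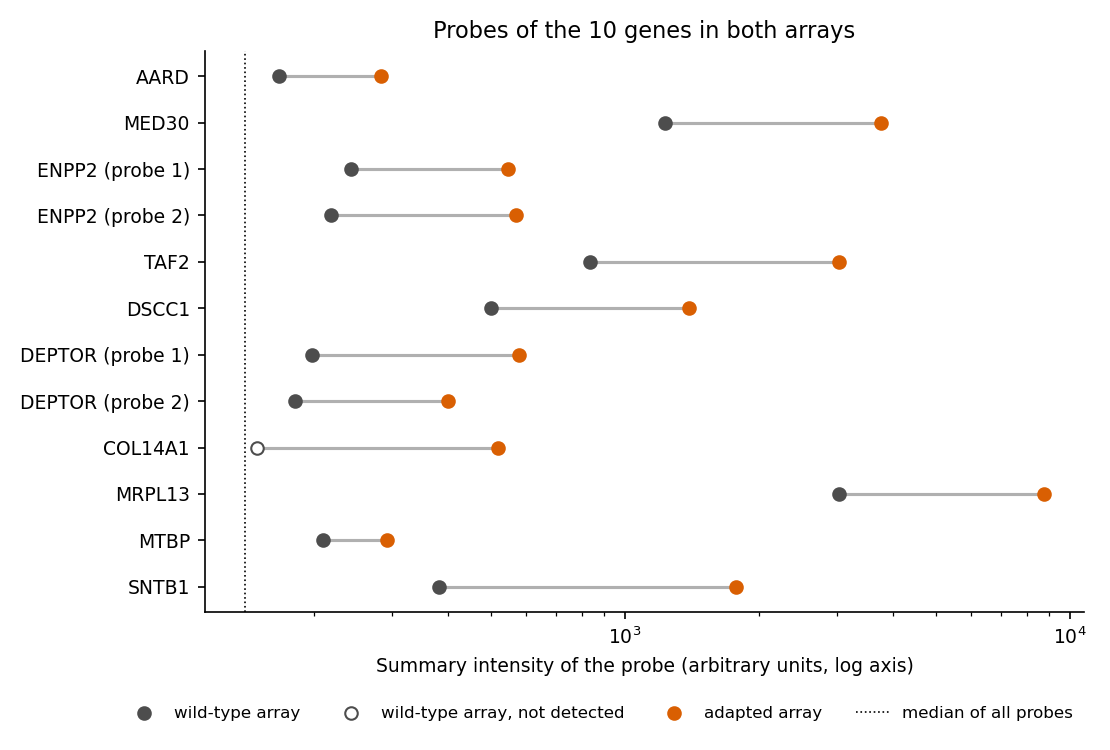
Summary intensity of each of the 12 probes (log axis, arbitrary units) in the wild-type array (grey) and the adapted array (orange), with genes in RefSeq order and the median of all probes as a dotted line. Every probe is brighter in the adapted array, and COL14A1 is the gene not detected in the wild-type array (open circle).

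Transcription was represented by MED30, a subunit of the Mediator complex that links transcription factors to RNA polymerase II, and by TAF2, a subunit of TFIID that contacts promoter DNA. The MED30 probe had an intensity of 1233 in wild-type cells and 3765 in adapted cells. Its difference was 1.44, or 2.72-fold. TAF2 read 836 and 3032, a difference of 1.75, or 3.37-fold. Both probes lay far above the median intensity of their arrays (139 in wild type, 140 in adapted), and their values moved little with the treatment of background, to 2.57-fold for MED30 and 3.07-fold for TAF2 when none was subtracted.

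The partners of both proteins, encoded elsewhere, were spread around lower values. The members were picked for reading high, so lower partner values follow in part from that choice, here and in the lists below. The 26 detected Mediator subunits other than MED30 had a median of 0.22. Of these, 5 (19.2%) were 1.5-fold higher or more and 2 (7.69%) as much lower, beside 11.8% and 12.2% of all tested genes. The higher count was 2 without background correction and 8 with median scaling. In those settings 475 and 2156 of all 11296 tested genes were as much higher. MED31 (0.99) was the highest, and MED27 (-1.07) and MED22 (-1.05) were the lowest. The 11 other detected TFIID genes had a median of -0.10 (0.13 with median scaling), and 1 of them passed 1.5-fold, TAF4B, detected in the adapted array alone with a bound of 0.65; without background correction or with an offset of 50 none did. TAF5 read 0.41, TAF4 0.29 and TAF10 -0.29.

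DSCC1 and MTBP act in chromosome duplication. DSCC1 forms, with CHTF18 and CHTF8, a clamp loader that places PCNA on DNA and helps to establish sister chromatid cohesion. It read 501 in wild-type cells and 1398 in adapted cells, a difference of 1.48, or 2.80-fold. MTBP, first described as a protein that binds MDM2, is the partner of TICRR in the firing of replication origins. It read 210 and 292, the narrowest gap among the 12 probes, with a difference of 0.77, or 1.71-fold. Without background correction MTBP was 1.33-fold higher, the one member under 1.5-fold, whereas DSCC1 was 2.41-fold higher.

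Some of the other genes of these processes passed 1.5-fold upward and most did not, but the shares were above that of all tested genes. They were 40% in the MTBP list, 27.3% in the clamp loader list and 33.3% in the cohesin list. Over all tested genes 11.8% were as much higher and 12.2% as much lower. The list of MTBP partners and origin firing genes had a median of 0.44 over 10 detected genes, and 4 passed 1.5-fold upward and 0 downward. TICRR itself read 1.31, CDC45 1.16 and TOPBP1 0.96, each a larger difference than that of MTBP. The TICRR probe was dim in wild-type cells, at 157, where the lowest detected intensity was 152. Without background correction TICRR read 0.51, under 1.5-fold, beside 0.41 for MTBP, 0.87 for CDC45 and 0.69 for TOPBP1. Among 11 clamp loader and cohesion genes 3 were higher and 0 lower (median 0.25), namely RFC4 (0.84), TIPIN (0.75) and RFC1 (0.74). Of the direct partners of DSCC1 in that list, CHTF18 read 0.17 and CHTF8 had no named probe. In the cohesin list 3 of 9 were higher and 0 lower (median 0.50), namely STAG1 (1.27), SMC3 (0.97) and STAG2 (0.87). That list leaves out the cohesin subunit RAD21, the nearest detected gene before the interval, whose lower value is given below. Without background correction 2 genes of the MTBP list, 1 of the clamp loader list and 2 of the cohesin list passed 1.5-fold. Of cell cycle genes, 16 of 16 genes of G2/M and mitosis passed 1.5-fold (median 1.40; CENPA 2.30, KIF20A 2.14, FOXM1 1.87), as did 4 of 14 genes of G1/S and DNA replication, with 1 lower, or 0 lower without background correction (median 0.35; TYMS 1.36, POLA1 1.16, PRIM1 1.08). Their part in the values of DSCC1 and MTBP was not tested.

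MRPL13 is a protein of the large subunit of the mitochondrial ribosome. Its probe read 3034 in wild-type cells and 8769 in adapted cells. The difference was 1.37, or 2.58-fold, and 2.53-fold without background correction, the smallest move of any member. The 47 other detected genes of that subunit had a median of 0.30. Of these, 7 (14.9%) passed 1.5-fold upward and 2 (4.26%) downward, beside 11.8% and 12.2% of all tested genes. With median scaling 21 were higher and 0 lower, where 2156 of all 11296 tested genes were higher and 1014 lower. Without background correction 5 were higher and 0 lower. MRPL9, on chromosome 1, came close to MRPL13 with 1.31, followed by MRPL58 and MRPL36, both at 0.72. MRPL15, a gene of the same subunit on the long arm of chromosome 8 but outside the block, read 0.64.

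DEPTOR and ENPP2 belong to signalling pathways. DEPTOR binds mTOR and restrains both of its complexes. One probe read 198 and 579 in the wild-type and adapted arrays and the other 182 and 401. These gave differences of 2.31 (4.97-fold) and 1.94 (3.83-fold). Without background correction the same probes were 2.72-fold and 2.08-fold higher. ENPP2 encodes autotaxin, the secreted enzyme that makes lysophosphatidic acid. Its probes read 243 and 546, and 218 and 569, and both were brighter in the adapted array. Their differences were 1.57 (2.97-fold) and 1.95 (3.88-fold). The 2 probes of a gene differed by 0.38 for DEPTOR and by 0.38 for ENPP2, and each probe was above 2-fold with and without background correction.

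The 14 detected genes of the mTOR complexes and their regulators had a median of 0.08. Of these, 3 (21.4%) passed 1.5-fold upward and 1 (7.14%) downward, beside 11.8% and 12.2% of all tested genes. DDIT4 (1.56) and SESN2 (1.20), both restraints on mTOR complex 1 that respond to stress, and its scaffold RPTOR (1.06) were the higher ones. The RPTOR probe was dim, at 169 in wild-type and 237 in adapted cells. Without background correction RPTOR read 0.45, under 1.5-fold, and 2 genes of the list were higher. PRR5, a partner of mTOR complex 2, was the lower one (-0.75), and 0 were lower without background correction or with median scaling. A list of ENPP relatives of ENPP2, PLPP phosphatases and lysophosphatidic acid receptors had a median of -0.07 over 10 detected genes. That median takes ENPP5, detected in the wild-type array alone, as a bound of -0.02. The median of the measured differences was -0.24, and 3 of the 10 genes were above 0. Of the 10, 0 passed 1.5-fold upward and 1 (10%) downward, beside 11.8% and 12.2% of all tested genes. ENPP4 (-0.67) was the lower one, LPAR2 read -0.53 and ENPP1 -0.52. ENPP4 and ENPP1 are in the list as relatives of ENPP2, so their values are not readings of lysophosphatidic acid enzymes. Without background correction or with an offset of 50, 0 genes of this list were lower, and in the authors' processed values 3 were.

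COL14A1 and SNTB1 encode structural and adaptor proteins. COL14A1 encodes a collagen that decorates the surface of collagen fibrils. It read 150 in wild-type cells, with a detection p of 0.0169, and 518 in adapted cells, with a detection p of 0. It was at least 9.42-fold higher, a bound that was 3.20-fold without background correction and 16.4-fold in the authors' processed values. SNTB1 encodes a syntrophin, an adaptor of the dystrophin complex beneath the plasma membrane. Its probe read 383 and 1780 and was detected in both arrays. The difference of 2.39, or 5.24-fold, ranked 8 of 11296 genes, and it was 4.04-fold without background correction.

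Few relatives of either gene were detected. Of 9 related collagens 3 were, with COL21A1 at 1.07, COL16A1 at -0.31 and COL12A1, detected in the wild-type array alone, at a bound of -0.29. Of 15 genes of the dystrophin complex 4 were detected, and none of them was 1.5-fold apart: SNTB2 read 0.26, SGCB 0.09, SSPN 0.05 and SGCE -0.09. COL14A1 is also expressed by fibroblasts, whose markers went both ways. Of 9 detected fibroblast markers out of 10, 3 were higher (DCN 1.97, COL3A1 0.92, LUM 0.78) and 4 lower (THY1 -1.17, PDGFRB -1.16, PDPN -1.09, COL1A1 -0.74), and PDGFRA was not detected. Their summed intensity before normalisation, background included, was 4263 in wild-type cells and 4519 in adapted cells. The same sums over all tested genes were 10557538 and 11583322. The part of the fibroblast markers in the COL14A1 value was not tested.

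AARD, at the start of the block, encodes a protein rich in alanine and arginine. Its probe was dim, at 167 in the wild-type array with a detection p of 0.0039 and 283 in the adapted array. The difference of 1.56, or 2.95-fold, depended on the background, being 1.64-fold when none was subtracted, and its intensities in the authors' processed table were 38.0 and 152.

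**Figure D2:**
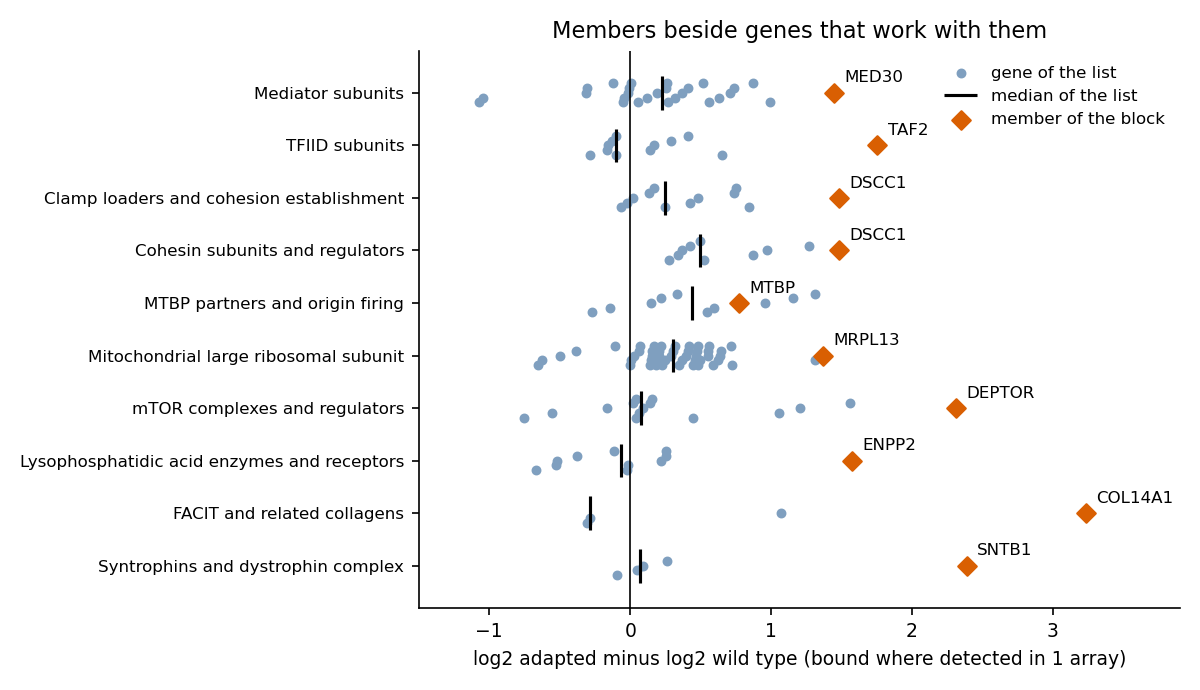
Log2 difference (adapted minus wild type) of each detected gene in 10 lists, beside a member (orange diamond). The lists hold genes that work with that member or are its relatives (blue points, black bar for the list median). List medians lie between -0.29 and 0.50, and MTBP (0.77) is the member that falls inside the range of its list. Members were picked for reading high, so their gap to the lists follows in part from that choice.

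**Figure D3:**
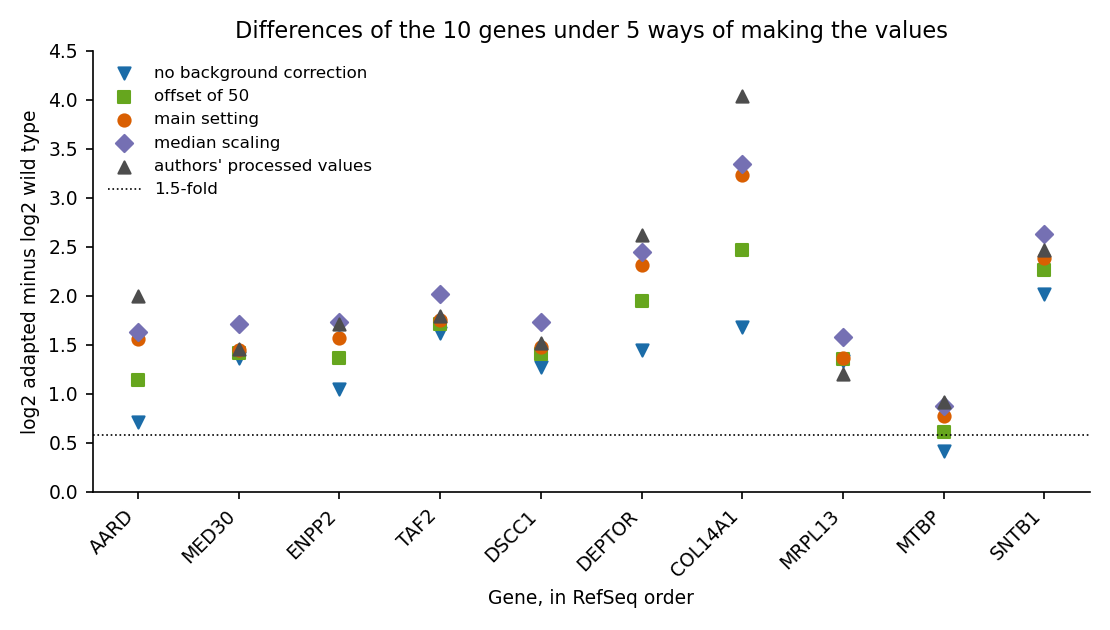
Log2 difference of the 10 genes under 5 ways of making the values, with 1.5-fold as a dotted line. MED30, TAF2, DSCC1 and MRPL13 stay close together across settings, COL14A1, DEPTOR and AARD spread most, and MTBP falls below the line without background correction.

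The members fell into 4 whose values barely moved with the treatment of background and 6 whose values did. MED30, TAF2, DSCC1 and MRPL13 moved by at most 0.21 when background correction was left out, and they lay between 2.58-fold and 3.37-fold, or between 2.41-fold and 3.07-fold without it. The other 6 genes moved by 0.36 to 1.56 and spanned 1.71-fold to at least 9.42-fold. Without background correction these 6 ranged from 1.33-fold to 4.04-fold, with SNTB1 in place of COL14A1 as the highest. SNTB1, at 5.24-fold and 4.04-fold, was above those 4 genes in both settings, and MTBP was below them in both. The plot of the 10 genes by setting shows the narrow and the wide groups side by side.

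Among the genes on the array, in RefSeq order, the 10 members are not an unbroken run. AARD and MED30 come first, then EXT1, SAMD12, TNFRSF11B, COLEC10, MAL2 and CCN3, none of them members, and then the 8 genes from ENPP2 to SNTB1. SLC30A8 lies between AARD and MED30. Of these 7 other genes, SLC30A8, SAMD12, TNFRSF11B and COLEC10 were not detected in either array, so their direction could not be read. EXT1, which builds heparan sulphate chains, read 977 in wild-type cells and 1421 in adapted cells, a difference of 0.33. MAL2, a membrane trafficking protein, read 305 and 216 and was lower, at -1.02 (-0.57 without background correction). CCN3, a matricellular signalling protein, read 244 and 319, a difference of 0.51. None of the 3 was at least 1.5-fold higher, though EXT1 (0.61) and CCN3 (0.65) passed that fold with median scaling, where the median of all tested genes was 0.17.

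**Figure D4:**
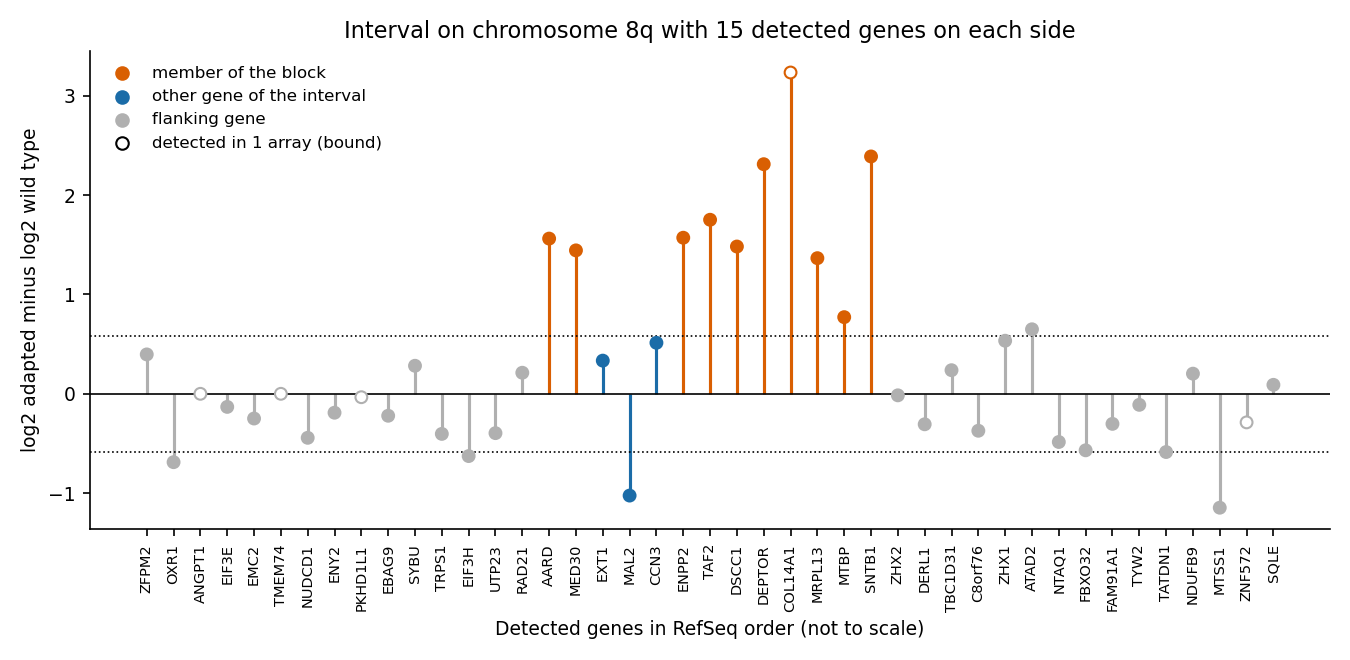
Log2 difference (adapted minus wild type) of the detected genes in RefSeq order, spaced evenly, for the interval from AARD to SNTB1 and 15 genes on each side; dotted lines mark 1.5-fold and open circles are bounds. The members (orange) stand between 0.77 and 3.24, whereas the flanking genes (grey) lie between -1.15 and 0.65.

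The ends of the interval are set by its outermost high-reading members, so lower values beyond them follow from the choice and are given as a description. Before AARD, the nearest detected gene was the cohesin subunit RAD21, which read 0.21, against 1.56 for AARD. Next outward came UTP23, a ribosome biogenesis factor, at -0.40, the translation initiation subunit EIF3H at -0.63, TRPS1 at -0.40 and SYBU at 0.28. After SNTB1 (2.39), HAS2 and HAS2-AS1 were not detected and the next detected gene was the transcriptional repressor ZHX2 at -0.02. Beyond it lay DERL1 (-0.31), which serves protein degradation from the endoplasmic reticulum, TBC1D31 (0.24), C8orf76 (-0.37) and ZHX1 (0.53).

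The 15 detected genes before the interval had a median of -0.19, and 0 passed 1.5-fold upward and 2 downward (OXR1 -0.69 and EIF3H), though 0 downward with median scaling. The 15 after it had a median of -0.29, with the chromatin ATPase ATAD2 (0.65) past 1.5-fold upward and MTSS1 (-1.15) and TATDN1 (-0.59) downward; without background correction 0 were higher and 1 lower, and with median scaling 2 higher and 1 lower. No flanking gene reached the difference of MTBP, the member with the smallest one, although members were picked for being high and the gap follows in part from that choice.

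**Figure D5:**
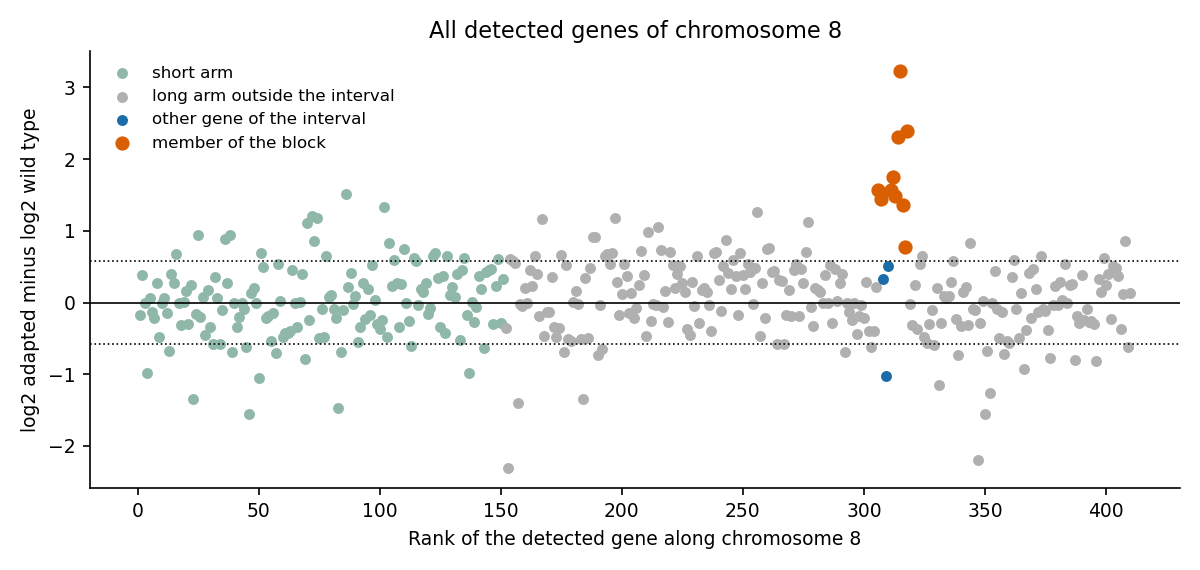
Log2 difference (adapted minus wild type) of all 410 detected genes of chromosome 8 against their rank along the chromosome, short arm in green, long arm in grey, members in orange and the 3 other detected genes of the interval in blue. Both arms outside the interval centre on 0, with medians of 0.00 and 0.05.

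The rest of chromosome 8 was centred near 0. The long arm outside the interval had a median of 0.05 over 246 detected genes, of which 32 (13%) passed 1.5-fold upward and 21 (8.54%) downward. The balance depended on the processing, with 9 higher and 14 lower without background correction and 59 and 12 with median scaling. At 2-fold, 5 (2.03%) were higher and 7 (2.85%) lower. The short arm had a median of 0.00 over 151 genes with bounds counted, and -0.01 on the measured differences. Of these genes, 21 (13.9%) passed 1.5-fold upward and 14 (9.27%) downward, beside 11.8% and 12.2% of all tested genes. The counts were 7 and 6 without background correction and 31 and 8 with median scaling. Over all 11296 tested genes they were 475 and 655, and 2156 and 1014. Among genes of the chromosome outside the interval that were detected in both arrays, the highest were the mitotic kinase PBK (1.52), UBXN8 (1.33) and the complex I assembly factor NDUFAF6 (1.26). The lowest among them were the transcription factor CEBPD (-2.31), the receptor GFRA2 (-1.55) and TRAPPC9 (-1.55). The proto-oncogene MYC, further along the long arm, read -0.22.

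As a check of the label, all 6 Ewing sarcoma markers were detected in both arrays, with CD99 at -0.55, FLI1 at 0.81, NKX2-2 at -0.09, STEAP1 at 0.35, PRKCB at -0.35 and LIPI at 1.82. Of 6 endothelial markers 0 were detected, of 6 epithelial markers 1 (EPCAM, 0.47), and of 8 leukocyte markers 3 (LCP1 -2.49, CD68 -0.35, CD14 -0.21), while the defining leukocyte gene PTPRC was not detected. The wild-type array had 37.8% of its probes detected and the adapted array 35.3%.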

How the data were processed

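Total RNA of 1 wild-type and 1 radiation-adapted A4573 sample was labelled and read on Illumina bead arrays. Per the file headers, the deposited summary table holds for each probe an average intensity before normalisation and a detection p-value; intensities start at 100 and 102, so background was still in them. A processed table deposited by the authors gives linear intensity with the same median (10.6) in both columns and 27.7% of values below 0. Its columns keep the probe ranks of their own array (Spearman rho 1.00, against 0.861 at most with the other). No source states the scanner software or how that table was normalised.

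Main values came from limma 3.58.1 under R 4.3.3, function neqc (normal-exponential background from the detection p, offset 16, quantile normalisation, log2). The platform annotation gave 1 symbol to 30113 of 47323 probes and several to 8; the other 17202 it does not list, and they are unnamed. Symbols, chromosomes and gene order came from RefSeq (GRCh38.p14) by gene ID, found for 30074 probes; its coordinates are not printed, since no source states the array's build. Genes needed 1 probe detected in either array (11296 genes, 9828 by a probe detected in both), and the brightest such probe stood for its gene. For a probe detected in 1 array, the difference is a bound against the higher of the dim value and the lowest detected value of that array. A bound that would change the sign of the difference was set to 0. Medians of groups and lists count these bounds unless measured differences are named. Arms were split at HGSNAT and SPIDR.

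No test was run, since each group holds 1 array; genes were counted by size. The number of arrays limits the precision. Named genes were all members and detected interval genes, the 5 nearest flanking genes on each side and any of the 15 at least 1.5-fold apart, the 3 highest and 3 lowest of chromosome 8 outside the interval, up to 3 per list, the Ewing sarcoma markers, and members of small counts; MYC, MRPL15 and list genes beyond that rule were chosen after their values were seen. The 17 lists (253 genes) came from general knowledge, and the members and lists were chosen with earlier results of these data known. The steps were tested on simulated data in which only genes clearly detected in the wild-type array were changed. That test did not cover changes in genes as dim there as AARD and COL14A1. The work ran under Python 3.11.15 with pandas 2.3.3, numpy 2.4.6 and, for figures, matplotlib 3.10.9.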

Additional observations from a re-analysis of the deposited data

How the results depend on the processing

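No paired analysis was possible because each group holds 1 array. The median difference of the 10 genes was 1.35 without background correction, 1.41 with an offset of 50, 1.73 with median scaling (0.17 over all tested genes), 1.75 in the authors' processed values and 1.66 with the mean over probes. All 68 values of member genes and their second probes under the alternatives were above 0, and 67 were at least 1.5-fold. They rest on the same 2 arrays, and the members were picked for reading high. The looser limit on the detection p changed the value of COL14A1 alone, and the mean over probes those of ENPP2 and DEPTOR alone. The other member values under those settings repeat the main ones. The counts therefore describe the members and add no independent support. The number of members at least 1.5-fold higher was 9 without background correction and 10 in the other settings that kept 1.5-fold; at 2-fold it was 9. The cause of the shifts below was not tested, except that a stricter fold counts fewer genes.

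Without background correction, 0 interval genes outside the block were lower, the flank after the interval had 0 higher and 1 lower, the rest of the long arm had 9 higher and 14 lower, and the short arm 7 higher and 6 lower. With an offset of 50 the flank after had 1 lower, the long arm 21 higher and the short arm 9 lower. With median scaling, 2 interval genes outside the block were higher, the flank before had 0 lower, the flank after 2 higher and 1 lower, the long arm 59 higher and 12 lower, and the short arm 8 lower. In the authors' processed values the short arm had 22 lower. With the mean over probes the flank after had 1 lower. At 2-fold the flank before had 0 lower, the flank after 0 higher and 1 lower, the long arm 5 higher and 7 lower, and the short arm 5 higher and 4 lower. With 10 flanking genes a side there was 1 lower before and 0 lower after; with 30 there were 2 higher before, and 2 higher and 4 lower after. Over all tested genes, 1333 higher and 1379 lower became 475 and 655 with no background subtracted, 873 and 1031 at the larger offset, 2156 and 1014 with median scaling, and 310 and 497 at 2-fold. 

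Among the partner lists, 2 Mediator genes, 0 TFIID genes, 1 clamp loader gene and 2 MTBP partners were higher without background correction, 0 genes of the mTOR, mitochondrial ribosome, lysophosphatidic acid and G1/S lists were lower, and the G2/M median was 1.05. With an offset of 50, 3 Mediator and 0 TFIID genes were higher. At that offset 1 gene of the mitochondrial ribosome list and 0 of the lysophosphatidic acid list were lower. With median scaling, 8 Mediator, 5 clamp loader, 5 cohesin and 21 mitochondrial ribosome genes were higher, 0 mTOR and 0 mitochondrial ribosome genes lower, and the TFIID median was 0.13. In the authors' processed values, 2 genes of the mTOR list and 3 of the lysophosphatidic acid list were lower, and at a detection p of 0.05 1 collagen. With the mean over probes the median of the dystrophin complex was -0.01. At 2-fold, 0 Mediator, 0 TFIID, 0 clamp loader, 1 cohesin, 1 mitochondrial ribosome and 2 MTBP list genes were higher, and 0 of the mTOR, mitochondrial ribosome, lysophosphatidic acid and G1/S lists lower. Besides the lack of replicates, the dependence on background treatment limits the reading: AARD, ENPP2, DEPTOR, COL14A1, MTBP and SNTB1 moved by 0.36 to 1.56 when no background was subtracted.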

Other observations

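Runs of neighbouring detected genes that were all past 1.5-fold upward were counted over the genome in RefSeq order, a count chosen after the values were seen. The run from ENPP2 to SNTB1, with 8 genes and a median of 1.66, was the longest, and 7 of its genes were at least 2-fold higher; all 8 are members picked for reading higher in this same comparison, so its length and values describe that choice and support nothing. The next was a run of 6 genes on the X chromosome from XAGE2 to TSPYL2 (median 0.74, 2 genes at least 2-fold), which holds cancer-testis genes so alike in sequence that one probe may read several. There were 7 runs of 4 genes, among them PIGS, ALDOC, SPAG5 and BLTP2 on chromosome 17 (median 1.37) and the MBD3L genes on chromosome 19 which are also close copies of each other. On chromosome 8 the longest other run was GNRH1, KCTD9 and CDCA2 on the short arm, with 3 genes and a median of 1.18. Runs depend on which genes were detected, and no test was made of their length.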
